A study of Mus musculus with 3 samples.

Results

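The 298 regions described here are strong open chromatin sites of epididymal fat cells for which neither inguinal nor brown fat cells had a listed site nearby. They were chosen by the authors' normalized tag count (the sequence tags in a site, scaled to the library) and by distance. A site had to be in the top 25% of the epididymal list, which made 15243 of 60974 sites strong, and no site of the other lists could lie at 1 kb or less, edge to edge. The 298 members were 1.95% of the strong sites (exact 95% binomial interval 1.74 to 2.19). The same rule gave 2.42% in inguinal fat (383 of 15803) and 2.0% in brown fat (242 of 12077). These shares follow from the rule, and nothing is read from them. Together the lists of the depots held 172496 sites.

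The data came from DNase-seq, which counts the ends left by DNase I in accessible DNA. Precursor cells of the stromal-vascular fraction were isolated from male NMRI mice aged 4 to 5 weeks and differentiated in culture. Epididymal (eWAT), inguinal (iWAT) and brown fat (BAT) supplied the cells, and BAT was pooled over interscapular, cervical and axillary depots. Every culture received 30 nM insulin, 1 µM rosiglitazone and 10% newborn calf serum. Harvest was on day 8, from cultures over 50% differentiated, so cells that had not become adipocytes could remain. Nuclei were cut with 120 U/ml DNase I.

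As background, promoters tend to be open in many cell types, whereas enhancers, which lie away from gene starts and bind cell-type regulators, are open more selectively. Enhancers often occur in groups along a stretch of chromosome. Epididymal fat is a visceral depot of the abdominal cavity, inguinal fat lies under the skin and brown fat produces heat, and precursors from these depots keep depot-specific expression programmes in culture. A list of sites shows where open chromatin was called, not where chromatin was closed.

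There was 1 library per depot, so differences below carry no replicate error and no test between depots was possible. Intervals of shares are exact 95% binomial (Clopper-Pearson), those of medians come from ranked values, and both leave out every error but that of counting. A single tag counted as 0.595 normalized tags in the eWAT list, against 0.985 for iWAT and 0.857 for BAT. If the libraries were scaled to a common total, which is not stated, eWAT would be the deepest, and how depth bears on the members was not tested. None of the lists has a site with a tag density under 4 times that of its surroundings, so a site of iWAT or BAT below that value would be missing from them. Positions are in mm9 as deposited. A genome sequence and gene annotation of that build were not used here, so members are given by position, without genes or sequences, and the tissue labels were not checked against marker genes.

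The members came from the lower end of the strong sites. Outside the first 3.3 Mb of the chromosomes, where 296 of the 298 lay, they held 13.7 to 29.1 normalized tags with a median of 15.5 (23 to 49 tags, median 26). Other strong eWAT sites there reached 468 with a median of 17.8. By tag count, the members were 3.51% of the strong sites under 15 normalized tags (130 of 3702, interval 2.94 to 4.16), 2.08% of those from 17 to 20 (66 of 3169) and 0.495% of those from 25 to 30 (7 of 1415). None of the 1156 sites with 30 or more was a member, which allows a share of up to 0.319% by the exact interval. Weaker sites, which are no members, lacked a neighbour in the other lists more often. In the eWAT list divided into 4 equal parts by tag count, the share was 9.87% in the second, 25.5% in the third and 46.7% in the lowest.

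**Figure D1:**
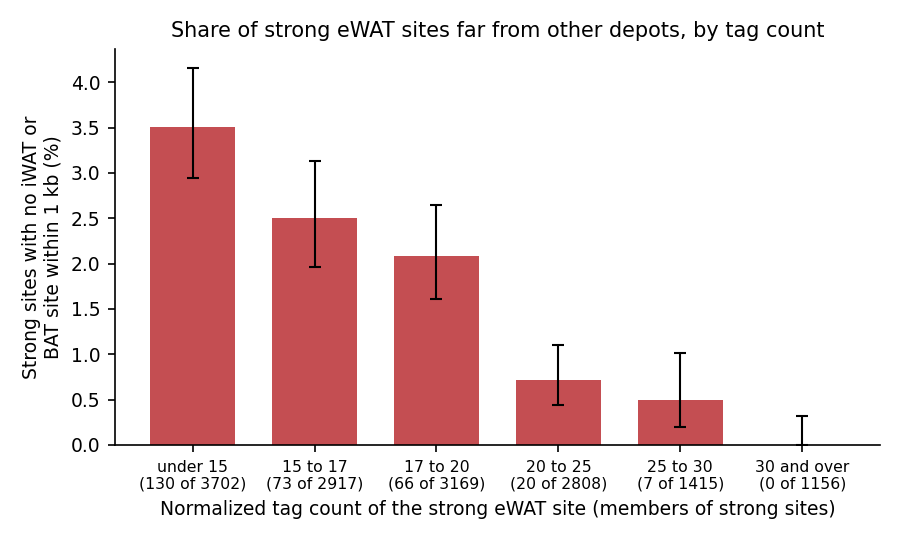
Share of strong eWAT sites outside the first 3.3 Mb that were members, on the vertical axis in percent, against normalized tag count, with exact 95% binomial intervals as error bars and the numbers of members and strong sites under each bar. The share is 3.51% in the weakest class and 0 of 1156 in the strongest.

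The tag limit of the rule cut through many sites of equal count. A distance limit of 500 bp in place of 1 kb raised the members from 298 to 348. A tag count of 13.7 was shared by 1468 eWAT sites, of which 1120 counted as strong after ties were ordered by the authors' peak score and then by position. This kept 45 members at that value and left out 14 sites that met the distance rule. The last members by tag count lay on chromosome 12 at 117628660 to 117628880 and chromosome 14 at 35345561 to 35345781. The first left out lay on chromosome 14 at 73037870 to 73038090 and chromosome 15 at 59866341 to 59866561, and these 4 sites all held 23 tags. By distance, the closest members lay 1012 and 1016 bp from a BAT site, on chromosome 13 at 83711488 to 83711708 and chromosome 4 at 86316646 to 86316866. Strong sites on chromosome 13 at 22025843 to 22026063 and at 29742603 to 29742823 missed the limit with 988 and 974 bp.

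The 2 members in the first 3.3 Mb of a chromosome were set apart. They held more tags than any other member. The first, at 3074113 to 3074333 of chromosome 11, had 149 tags (88.6 normalized) at 5.7 times its surroundings, and its nearest site of any list lay 18.8 kb away. The second, at 3037928 to 3038148 of chromosome 9, had 125 tags (74.3 normalized) at 4.17 times its surroundings. A site common to the 3 depots, with 117.2 normalized tags in eWAT, lay 1.26 kb from it. The first 3.3 Mb held 0.671% of the members (2 of 298, interval 0.0814 to 2.40), 0.495% of the other strong eWAT sites and 0.295% of all eWAT sites. Given the width of the first interval, these shares could not be told apart at this number of members. All values below are for the 296 members outside these stretches.

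The members ranged from sites a short way from open chromatin of another depot to sites on their own. The distance to the nearest iWAT or BAT site ranged from 1.01 kb to 1437 kb with a median of 3.63 kb. It was at most 2 kb for 78 members (26.4%), over 2 and up to 5 kb for 104 (35.1%), up to 20 kb for 69 (23.3%), up to 100 kb for 34 (11.5%) and more than that for 11 (3.72%). Thus 61.5% of the members (182 of 296, interval 55.7 to 67.1) were within 5 kb of a site of another depot, and the name "far" applies to them only in the sense of the 1 kb limit. The nearest such site was in the iWAT list for 160 members and in the BAT list for 136. In 176 cases (59.5%) an eWAT site overlapped it, and in 127 (42.9%) it overlapped sites of both remaining lists and was common to the 3 depots. In the lists as a whole, 20317 of 63214 iWAT and 11332 of 48308 BAT sites overlapped no site of another depot. The shares overlapping an eWAT site, or sites of both remaining lists, were not computed for the whole lists. These counts are therefore not read as particular to the neighbours of members.

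Prominence over the surroundings differed between close and lone members. The rule did not rank by it, but no list holds a site with a fold under 4. Fold could thus bear on membership through the other lists, and how far it did was not tested. The median fold of tag density over surroundings was 4.95 for members within 2 kb of another depot's site, 5.63 from 2 to 5 kb, 10.7 from 5 to 20 kb, 13.5 from 20 to 100 kb and 12.8 beyond. The interquartile ranges were 4.47 to 6.07, 4.55 to 8.10, 7.72 to 14.4, 10.7 to 15.4 and 10.6 to 18.4. A fold under 6 was found in 118 of the 182 members within 5 kb (64.8%, interval 57.4 to 71.8) and in 12 of the 114 farther away (10.5%, 5.56 to 17.7). Across the 296 members Spearman's rho of fold with this distance was 0.62, a description over sites of a single library that share its depth and the lower bound of 4. The rho of fold with the distance to the next eWAT site was 0.55 in members and 0.44 in the 14871 other strong eWAT sites. A relation of fold with spacing was thus not particular to members. The next eWAT site was common to the 3 depots for 47.97% of members and 42.8% of the other strong sites. Distances to eWAT sites and to sites of other depots were therefore not told apart. The rho of fold with tag count was -0.08 within the members, against 0.28 in the other strong eWAT sites. How wide the surroundings behind the fold were is not stated, and the part in this pattern of tags from neighbouring sites was not tested.

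**Figure D2:**
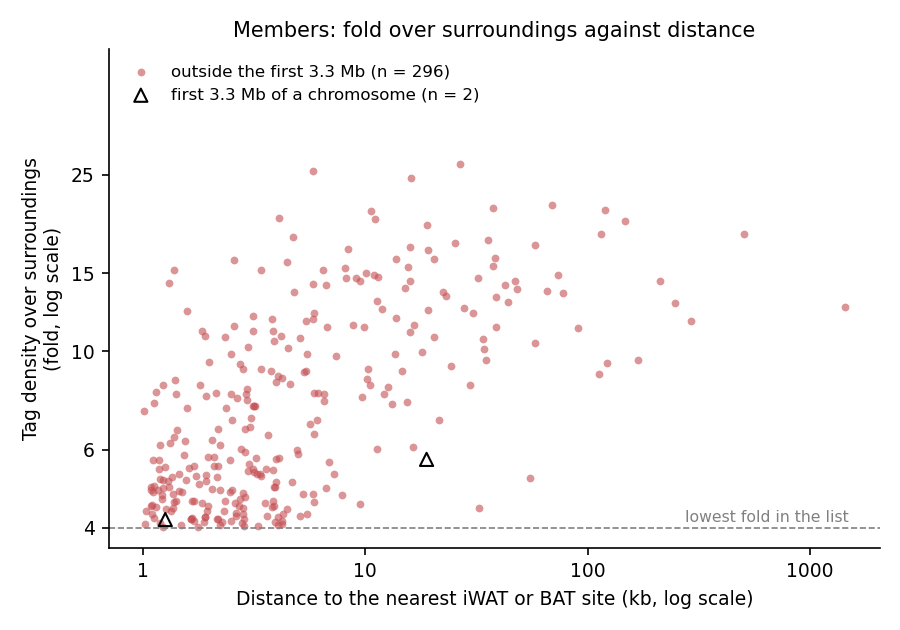
Each point is a member. The horizontal axis gives the distance to the nearest iWAT or BAT site in kb and the vertical axis the tag density over the surroundings as a fold, both on log scales, and triangles mark the 2 members in the first 3.3 Mb of a chromosome. Members within 5 kb crowd toward the lowest listed fold of 4, whereas 2 of the 45 circles beyond 20 kb stand under 6.

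Against other strong sites, members stood out less from their surroundings and were more sharply centred. The lower bound of fold in the lists bears on the first of these differences too, to an extent that was not tested. The median fold was 7.0 in members (interval of the median 6.01 to 8.00) and 9.60 in the 13614 other strong eWAT sites of the same tag range (9.53 to 9.69). Below a fold of 6 were 43.9% of the members and 13.8% of these other sites. The tag range was shared but not the tag counts within it, and the medians were 7.58 and 8.68 under 15 normalized tags, where 130 members lay. From 20 to 25 normalized tags they were 4.69 in 20 members and 10.5 in the others. The medians also differed by the distance to the next eWAT site. With another eWAT site within 2 kb the medians were 5.11 in 61 members and 7.59 in 3320 other sites, and from 2 to 5 kb they were 5.50 and 7.74. With the nearest eWAT site at 20 to 100 kb the order turned, with 14.1 in 27 members and 12.2 in 1991 other sites. The focus ratio, the share of tags placed as a site centred there would have them, had a median of 0.714 in members (0.703 to 0.725) and 0.684 in the other sites of the same tag range (0.683 to 0.686). The 995 strong sites that overlapped no site of another depot but had one within the limit had a median of 0.648 (0.644 to 0.652). In the sets that the same rule gave in the other depots, the median was 0.711 in iWAT (0.698 to 0.722) and 0.697 in BAT (0.689 to 0.711). A focus ratio near the members' value was thus not particular to eWAT. Clonal fold, a measure of duplicate tags, had a median of 0.95 in members and 0.94 in the other sites of the same tag range.

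Of the 10 members with the most tags, 7 were within 5 kb of another depot's site. The highest, at 47918327 to 47918547 of chromosome 12, had 49 tags (29.1 normalized). It was an exception among lone sites, since its fold was 4.42 although the nearest iWAT site was 32.4 kb and the nearest eWAT site 48.7 kb away. Within 50 kb of it the lists held 1 eWAT, 4 iWAT and 1 BAT site. The only other member with a fold under 6 beyond 20 kb lay on chromosome 10 at 22539745 to 22539965, with a fold of 5.18 at 55.2 kb, and was picked out after its values were seen.

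The second by tags, on chromosome 19 at 8917681 to 8917901, held 27.4 normalized tags at a fold of 5.11. A site common to the 3 depots lay 1.24 kb from it and held 29.1 in eWAT. The third, on chromosome 17 at 26646660 to 26646880, held 26.8 at a fold of 5.08, with a BAT site at 4.70 kb and an iWAT site at 4.93 kb. The fourth lay on chromosome 18 at 64910445 to 64910665 with 26.2 at a fold of 4.35, and the common site 1.94 kb away held 57.7 in eWAT. These 3 sites thus stood within 5 kb of open chromatin of both other depots, with folds near the lower bound of the list.

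Among the next 6 by tags, 2 were lone sites of high prominence. The site on chromosome 16 at 75961553 to 75961773 held 26.2 normalized tags at a fold of 26.4, the highest of the 296. A weak eWAT site of 8.92 normalized tags, 83.6 kb away, was its nearest neighbour in its own list. The nearest BAT site was 26.6 kb and the nearest iWAT site 118 kb away. The site on chromosome 5 at 10032467 to 10032687 held 25.6 at a fold of 13.6, and no list had another site within 50 kb. The other 4 were close sites with folds from 4.06 to 5.27. They lay on chromosome X at 72917075 to 72917295 (25.6 normalized tags), chromosome 19 at 20467950 to 20468170 (24.4), chromosome 13 at 105075238 to 105075458 (24.4) and chromosome 8 at 13674513 to 13674733 (23.8). Their nearest sites of another depot were 2.23, 2.77, 1.45 and 1.70 kb away and overlapped an eWAT site in each case.

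Beside the chromosome 16 site, the members highest above their surroundings held 23 to 31 tags, where the median of members was 26. On chromosome X at 49266349 to 49266569 a fold of 25.6 rested on 23 tags, 5.84 kb from a weak common site of 8.33 normalized tags in eWAT. On chromosome 6 at 94398578 to 94398798 the fold was 24.6 with 31 tags, and the nearest iWAT and BAT sites were 16.0 and 42.7 kb away. On chromosome 13 at 75295602 to 75295822 it was 21.4 with 25 tags, 69.3 kb from any site of another depot. On chromosome 9 at 113287605 to 113287825 it was 21.1 with 27 tags, 37.5 kb from the nearest BAT site. The eWAT sites nearest to the last 3 held 6.54 normalized tags each, below the list's median of 9.52.

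The members most distant from iWAT and BAT had at most 1 listed site of any depot within 50 kb beside themselves. On chromosome 1 at 125830772 to 125830992, a site of 17.8 normalized tags at a fold of 12.6 was 1437 kb from the nearest iWAT site. On chromosome 11 at 37549319 to 37549539, a site of 17.2 at a fold of 18.4 was 503 kb from the nearest BAT site and 356 kb from the next eWAT site. On chromosome 4 at 103453908 to 103454128 the nearest BAT and iWAT sites were 293 and 296 kb away, and the site held 14.3 at a fold of 11.7. The site on chromosome 6 at 75508371 to 75508591 held 17.8 at a fold of 12.8. Its nearest iWAT site was 246 kb and its nearest eWAT site was 710 kb away, the largest gap to another eWAT site among the members. On chromosome 13 at 8272050 to 8272270, a site of 14.9 at a fold of 14.4 had its nearest neighbours of all lists at 212 kb. A similar lone site on chromosome 1 at 103183278 to 103183498 held 13.7 at a fold of 20.9, with 120 kb to the next eWAT and the next iWAT site.

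Most members nevertheless had other epididymal sites near them. Another eWAT site lay within 10 kb of 210 members (70.9%, interval 65.4 to 76.1), against 65.4% of the other strong eWAT sites (64.6 to 66.2) and 59.2% of all eWAT sites (58.8 to 59.6). The members' share was 63.8% with a limit of 2 kb in the rule and 54.2% among members with a fold of at least 6. Both are below the 65.4% of the other strong sites. Those sites were not restricted in the same way, so this is not a like comparison. Within 50 kb the shares were 95.3%, 96.5% and 93.3%. At very short range the order was the reverse. Within 1 kb lay another eWAT site for 7 members (2.36%, 0.956 to 4.81) and for 14.8% of the other strong sites. This difference follows in part from the rule, because eWAT sites that overlap a site of another depot could not be that close to a member. The median distance to the next eWAT site was 4.39 kb for members and 6.58 kb for other strong sites. In the sets that the same rule gave in the other depots, a neighbour in the own list within 10 kb was more frequent. It was found for 83.9% in iWAT (318 of 379, interval 79.8 to 87.5) and 84.3% in BAT (204 of 242, 79.1 to 88.6). Near sites of the own list were thus not particular to eWAT. The lists differ in length, so this too is not a like comparison.

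**Figure D3:**
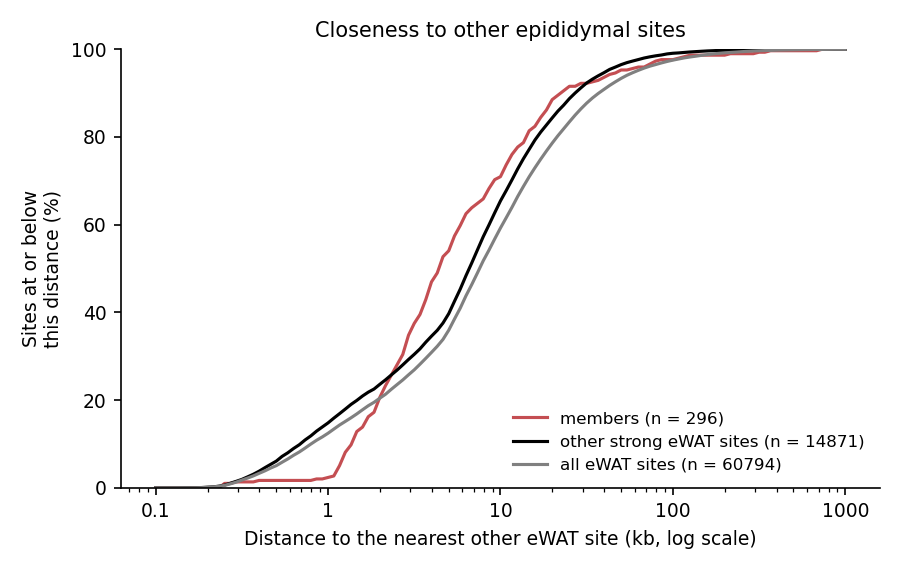
Cumulative share of sites, in percent on the vertical axis, against the distance to the nearest other eWAT site in kb on a log scale, for the 296 members, the 14871 other strong eWAT sites and all 60794 eWAT sites outside the first 3.3 Mb. The members' curve starts below the others under 1 kb and lies above them at 10 kb, where it reaches 70.9%.

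The nearest other eWAT site was common to the 3 depots for 142 of the 296 members (47.97%, 42.2 to 53.8), against 42.8% of the other strong sites (42.0 to 43.6). It was itself without a site of another depot within the limit for 58 members (19.6%, 15.2 to 24.6), against 16.0% of the other strong sites (15.4 to 16.6) and 19.9% of all eWAT sites.

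On average, members did not lie in stretches rich in epididymal sites at the expense of other depots. From 1 to 50 kb on either side, where the rule set no limit, they had on average 5.20 eWAT, 5.37 iWAT and 4.35 BAT sites. Other strong eWAT sites had 4.85, 5.10 and 4.08. The means were 6.56, 6.97 and 5.77 for the 78 members within 2 kb of another depot's site. For the 34 members at 20 to 100 kb they were 1.65, 1.26 and 0.735. That distance itself limits the iWAT and BAT sites in this range. The ratio of iWAT to eWAT sites was 1.03 around members and 1.05 around the others, and that of BAT to eWAT sites was 0.837 and 0.842. More eWAT sites than sites of either other depot were found around 79 members (26.7%) and around 26.1% of the other strong sites. Of the eWAT sites in this range, 20.1% around members and 17.4% around other strong sites had no neighbour in another list within the limit, and 19.0% around all eWAT sites. No iWAT or BAT site was listed in this range for 19 members (6.42%), 2.96% of the other strong sites and 5.95% of all eWAT sites.

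What differed was the spacing at short range, and it differed for all 3 lists. The rule bears on this comparison, because every other strong site had an iWAT or BAT site at 1 kb or less and no member had. How much of the difference follows from the rule was not tested. From 2 to 3 kb away, members had 0.0895 eWAT, 0.0980 iWAT and 0.0963 BAT sites per kb. Other strong sites had 0.0344, 0.0411 and 0.0360. From 20 to 50 kb away the densities were 0.0474, 0.0478 and 0.0372 around members and 0.0488, 0.0509 and 0.0402 around the others. Around other strong sites the density was lower from 2 to 5 kb than on either side of that range, whereas around members it fell from each distance class to the next for all 3 lists.

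**Figure D4:**
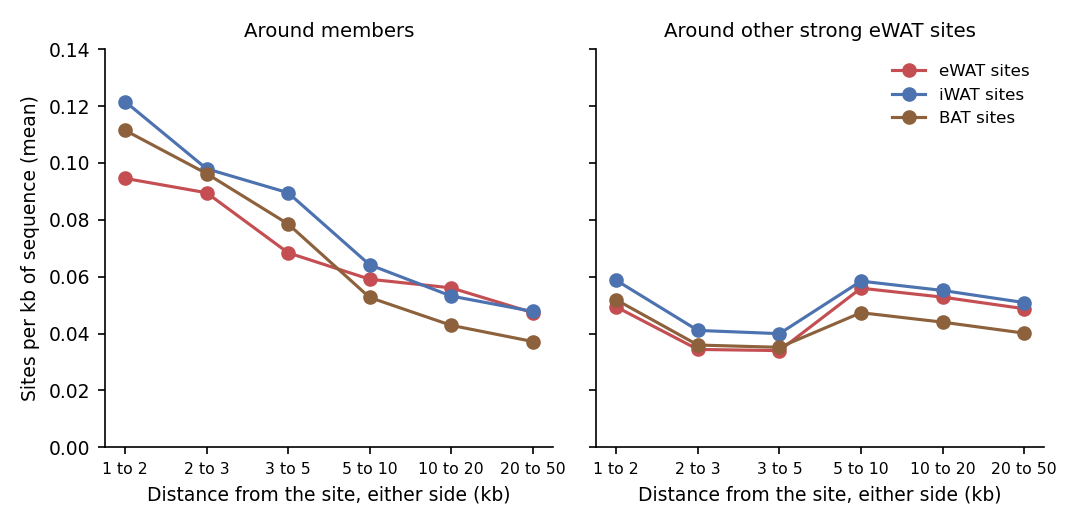
Mean number of eWAT, iWAT and BAT sites per kb of sequence on the vertical axis, by distance in kb on either side of 296 members (left) and 14871 other strong eWAT sites (right). Members have more sites of all 3 lists than other strong sites in every class up to 5 kb, and similar numbers beyond 20 kb.

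The members with the most epididymal sites within 50 kb lay in stretches with many sites of every depot. On chromosome 12 at 16855377 to 16855597, a member of 16.7 normalized tags had 14 other eWAT, 13 iWAT and 11 BAT sites within 50 kb. The corresponding numbers were 13, 13 and 11 on chromosome 15 at 88694519 to 88694739, and 12, 12 and 14 on chromosome 6 at 21943193 to 21943413. They were 12, 9 and 10 at the chromosome X site named above. The folds of these 4 members lay between 4.06 and 4.48. A further 9 members, with the first chromosome 19 site among them, had 11 other eWAT sites within 50 kb, together with 9 to 12 iWAT and 4 to 11 BAT sites, at folds from 4.04 to 8.39.

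Most members had no other member within 100 kb. Linked at up to 100 kb, 264 stood alone and 32 formed 16 pairs (10.8% of members, interval 7.51 to 14.9), and no group had 3 or more. The share was not computed for equal numbers of other strong sites. Neither clustering of members nor a lack of it is therefore read from it. The closest pair lay on chromosome 1 at 71777054 to 71777274 and 71777514 to 71777734, 240 bp apart. Its sites held 15.5 and 14.3 normalized tags at folds of 8.03 and 6.84, and the nearest iWAT site was 5.65 kb away. A pair 3.91 kb apart on chromosome 15, at 40903919 to 40904139 and 40908050 to 40908270, held 13.7 and 22. Within 50 kb of its first site were 6 other eWAT sites against 2 in iWAT and 1 in BAT. A pair 9.74 kb apart on chromosome 1, at 100811814 to 100812034 and 100821771 to 100821991, held 16.1 and 17.8. None of these 3 pairs had an iWAT or BAT site between its members.

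The next pairs spanned sites of other depots. On chromosome 8 at 96696662 to 96696882 and 96715232 to 96715452, 18.4 kb apart, 2 sites of each list lay between members of 15.5 and 13.7 normalized tags. On chromosome 10 at 33891783 to 33892003 and 33917787 to 33918007, 25.8 kb apart, the members held 15.5 and 19.6, and 1 eWAT, 1 iWAT and 2 BAT sites lay between them.

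Members were found on all autosomes and on chromosome X. Relative to the strong sites of a chromosome they were most frequent on chromosome 1, with 35 of 1073 (3.26%, interval 2.28 to 4.51), and least on chromosome 7, with 6 of 856 (0.701%, 0.258 to 1.52). Over all chromosomes the share was 1.95%, and without chromosome 1 it was 1.85%. Of the 20 chromosomes compared, only these 2 had intervals that left out the overall share. The intervals were not adjusted for the 20 comparisons, and these 2 chromosomes were picked for their shares. Chromosome X held 4 members among 194 strong sites (2.06%).

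Some members lay in stretches where several epididymal sites followed each other with no iWAT or BAT site among them. The 296 members lay in 291 such stretches, measured between the flanking sites of the other depots, with a median length of 19.0 kb. In 196 cases (66.2%) the member was the only eWAT site of its stretch. That is close to the list as a whole, where 65.8% of the 19482 eWAT sites that overlapped no other depot's site were alone in this way. There were 14 stretches with a member and 4 or more eWAT sites, out of 181 such runs of the eWAT list. They held 15 members (5.07%, interval 2.86 to 8.22), close to the 4.26% of all eWAT sites without an overlap that lay in such runs. The iWAT list had 149 runs of 4 or more and the shorter BAT list 19. The stretches described next were picked for their number of eWAT sites after the values were seen. Which genes lie in them, and whether those are active in adipocytes or in other cells of the cultures, was not checked.

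The run with the most sites in any list, 10 in eWAT, lay on chromosome 6 between an iWAT or BAT site ending at 122842525 and one starting at 123211724, over 369 kb. Its strongest site was the member at 123177785 to 123178005, with 14.3 normalized tags at a fold of 10.7. The other 9 held 5.95 to 10.1 and were not strong. The largest runs of iWAT and BAT had 9 and 6 sites.

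A stretch on chromosome 9, from 123874729 to 123997056, held 7 eWAT sites within 122 kb and was the shortest of the 6 stretches with most eWAT sites. It contained 2 members, at 123952780 to 123953000 and 123983065 to 123983285. Each held 16.1 normalized tags, at folds of 12.9 and 11.9, and the weaker sites beside them held 5.95 to 10.1.

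On chromosome 1, 7 eWAT sites were spread through 3014 kb without a site of another depot, from 124253907 to 127267496. They included the most distant member, at 125830772 to 125830992, and 6 sites of 5.95 to 13.1 normalized tags that were not strong. Elsewhere, 6 eWAT sites lay on chromosome 14 between 13407931 and 13855201, with a member at 13555214 to 13555434 that held 18.4 at a fold of 19.7. On chromosome 5 between 46393348 and 46604190 there were 5, with a member at 46512932 to 46513152 of 19.0 at a fold of 11.3. On chromosome 17 between 49616904 and 49753984 there were also 5, with a member at 49682779 to 49682999 of 20.8 at a fold of 13.7. In each of these stretches the members had the highest tag counts, as strong sites must among sites that are not strong.

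**Figure D5:**
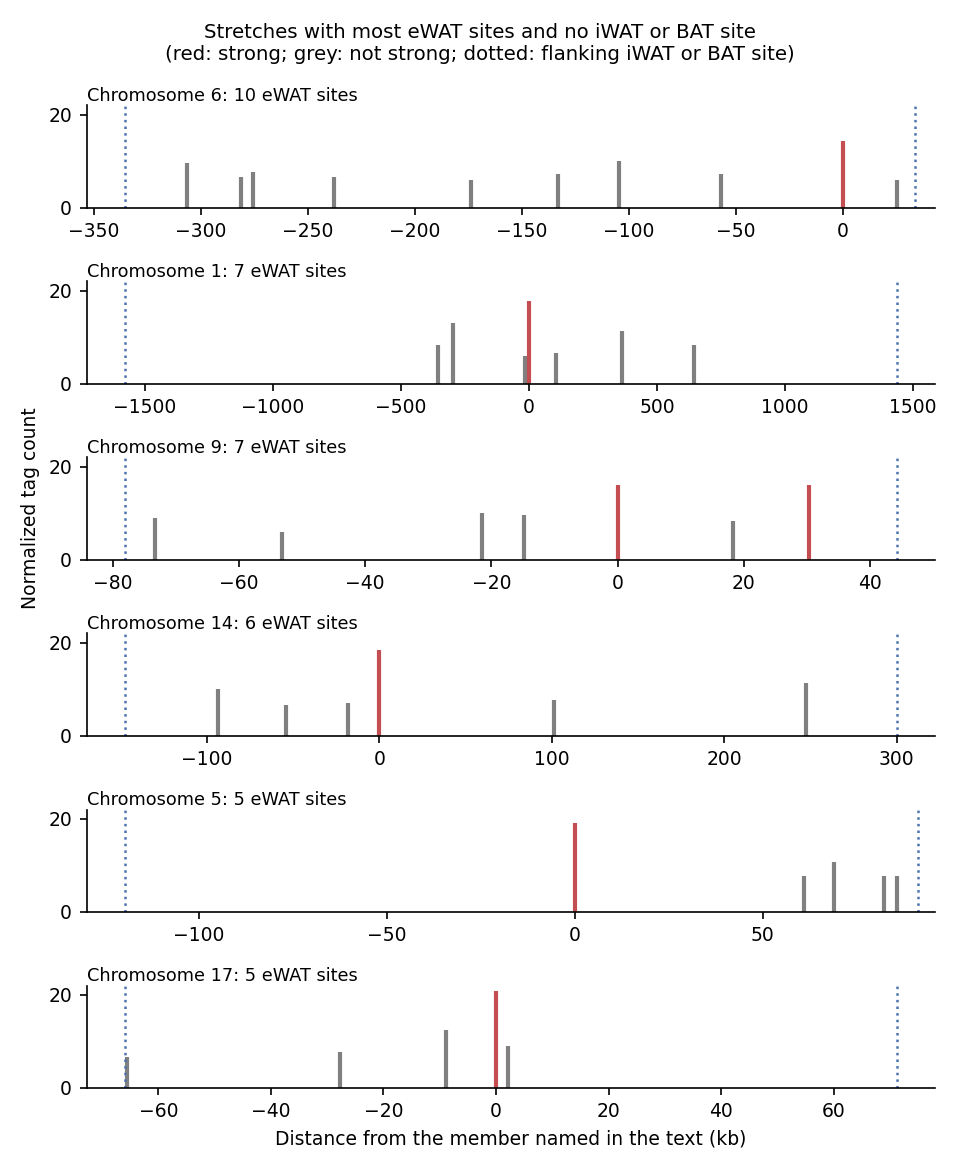
The 6 stretches with a member and 5 or more eWAT sites, with the distance from the start of the member named first in the text in kb on the horizontal axis and the normalized tag count on the vertical axis. Red lines are strong sites, grey lines are other eWAT sites and dotted lines mark the flanking iWAT or BAT sites, and the chromosome 9 stretch alone holds 2 strong sites.

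Most sites of the matching sets of the other depots also lay within 5 kb of another depot's site. Outside the first 3.3 Mb, 69.1% of the 379 iWAT sites (64.2 to 73.7) and 73.6% of the 242 BAT sites (67.5 to 79.0) were within 5 kb of a site of another depot, against 61.5% of the epididymal members. The median folds were 6.08 in iWAT (5.65 to 6.58), 5.43 in BAT (5.09 to 5.76) and 7.0 in eWAT (6.01 to 8.00). The whole lists had 9.91, 9.23 and 7.46. The epididymal set thus had the highest median of the 3, with an interval that overlapped that of iWAT, while its list had the lowest. More than 100 kb from any other depot's site lay 11 epididymal members, 3 of the inguinal sites and 1 brown fat site. The eWAT members were matched against the iWAT and BAT lists, which differ in length from the lists that the other sets were matched against. These shares and medians, each from a single library, are therefore not like comparisons.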

How the data were processed

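DNase-seq was done on 1 library per depot (eWAT, iWAT, BAT). STAR, HOMER and the mm9 build are named, without roles, versions or settings, per the submitters' processing notes. Columns are those of HOMER's findPeaks, per the file headers: a normalized tag count (a signal scaled by the authors to a total not given in the sources used here), a deposited peak score, a deposited focus ratio (a fraction), a fold (ratio) over surroundings with its deposited p-value, and a deposited clonal fold. The median eWAT site was 220 bp wide.

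Distances are gaps between nearest edges, and a site counts as in the first 3.3 Mb of a chromosome if it ends there. Tags are the normalized count divided by its step, rounded; 98.4% of eWAT values below 30 were whole multiples within 0.05 (0.005 below 10). Named sites are the 10 members with most tags, 5 each by fold, distance and crowding, the closest 5 pairs and those at the limits. Members, rule and lists were chosen with earlier results of these data known. Gene lists and motifs planned for an mm9 annotation were not run. Distance code was tested on simulated data. Python 3.11.15, numpy 2.4.6, pandas 2.3.3, scipy 1.17.1 and matplotlib 3.10.9 were used. The effects of 12 alternatives are given in the closing section.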

Additional observations from a re-analysis of the deposited data

How the results depend on the processing

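With 1 library per depot no library could be left out, and no paired analysis was possible because the labels give no replicates. Each of 5 results was recomputed under 12 alternatives. Measuring between centres, a limit of 500 bp, including ties (312 members) and shortening the iWAT list to the length of the BAT list (360) left all 5 within 1.5 times (counts) or within their 95% intervals. The number of members became 40 with the top 10% of the list, 1803 with the top 50%, 2073 when ranked by fold, 966 against the top 50% of iWAT and BAT sites, 541 against iWAT alone, 1025 against BAT alone and 166 with a fold of at least 6. The share in the first 3.3 Mb, 0.671%, became 5.00% with the top 10% and 0 with a fold of at least 6. The median fold, 7.0, became 8.48 with a limit of 2 kb, 5.11 with the top 10%, 11.6 when ranked by fold, 9.74 against the top 50% of the other lists, 8.23 against BAT alone and 10.8 with a fold of at least 6. The share with another eWAT site within 10 kb, 70.9%, became 63.8% with a limit of 2 kb, 64.8% with the top 50%, 25.4% when ranked by fold, 64.1% against the top 50% of the other lists and 54.2% with a fold of at least 6. The share with another member within 100 kb, 10.8%, became 0% with the top 10%, 25.7% with the top 50%, 21.3% when ranked by fold, 18.3% against the top 50% of the other lists and 22.4% against BAT alone. More or fewer members by themselves change the last share. Ranking by fold and requiring a fold select on the measure itself; other causes were not tested.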
